A study of Mus musculus with 65 samples.

Results

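A block of RNA polymerase II initiation and a block of its elongation were compared in replicated chromatin of mouse embryonic stem cells that had matured for 2 h. Triptolide stops initiation and DRB stops elongation. The members were 6 libraries, the 3 triptolide and the 3 DRB libraries of EdU-labelled DNA after the 2 h chase, out of 36 libraries of the inhibitor experiment and 65 samples of the series. They were taken by their labels. Promoters and enhancers were less accessible with triptolide than with DRB: the mean signal at transcription start sites (TSSs), relative to background windows, was 6.70 ± 0.331 (SD, n = 3) with triptolide, 12.4 ± 1.54 with DRB and 17.3 ± 1.73 with the solvent DMSO. The histone, small nuclear RNA and ribosomal protein promoters had the lowest median differences of the gene lists examined.

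E14TG2a is an embryonic stem cell line of mouse strain 129/Ola. Per the labels, cells grew on gelatin in serum with LIF and received DMSO, DRB or triptolide during the 2 h that preceded EdU. EdU, a thymidine analogue, was then given at 20 uM for 10 min. Nascent samples were collected at once, and the 2 h samples grew on in 10 uM thymidine. Chromatin was cut by the transposase Tn5, and EdU-labelled fragments were captured on streptavidin. The unbound fraction is the DNA left in the supernatant of that capture. The labels state no drug dose and do not tell if cells were kept in the drug while EdU and thymidine were on. Every group carried EdU and differed in the drug alone within a time point. The labels do not say whether replicates were separate cultures, so p-values measure only the spread between these samples, which may be technical.

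RNA polymerase II is loaded at promoters by general transcription factors. Among these is TFIIH, whose XPB subunit helps to melt the DNA and is the target of triptolide. The polymerase is phosphorylated on serine 5 of its tail (S5P) as it initiates, and then pauses a short way downstream. CDK9, the kinase of P-TEFb, releases the pause, and DRB inhibits it. DRB thus leaves polymerases at promoters that had initiated, while triptolide removes new initiation. Passage of the replication fork displaces nucleosomes, transcription factors and polymerase, and regulatory sites must become accessible again afterwards. The title of the series names transcription restart as the process under study.

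The 6 libraries held between 2.29 and 3.76 M reads. Levels are reads per M reads of a library (RPM), and 1 read stood for 0.266 to 0.437 RPM. The triptolide and DRB depths overlapped in range. The DMSO libraries held 2.78 to 3.62 M reads. Across TSSs, the correlation of log2(RPM + 1) was 0.68 to 0.72 between triptolide libraries, 0.79 to 0.84 between DRB libraries, 0.75 to 0.81 between DRB and DMSO libraries and 0.46 to 0.52 between triptolide and DMSO libraries. These are descriptions across TSSs, which are not independent. The promoters of embryonic stem cell factors were open, with a median of 6.22 RPM in DMSO over 34 tested pluripotency genes. Values are shares of a library, so a total gain or loss of accessibility would not show. In these bulk libraries, fewer cells with an open site and less opening per cell cannot be told apart.

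Relative to background windows at least 1000 bp from any peak, TSS signal was 6.36, 7.02 and 6.73 in the triptolide libraries. The DRB libraries gave 11.1, 12.1 and 14.1, and the DMSO libraries 18.5, 18.1 and 15.3. The 3 groups did not overlap, and DRB lay between triptolide and DMSO. The DRB mean was 1.85 times the triptolide mean. This ratio had an exact permutation p of 0.1 (two-sided), the smallest that 3 against 3 libraries allow. Enhancers showed the same order. Their ratio to background was 9.35, 9.28 and 7.90 with triptolide, 15.9, 17.8 and 17.4 with DRB, and 25.2, 26.9 and 20.6 with DMSO (exact permutation p = 0.1 for triptolide against DRB, 1.93-fold). In nascent chromatin the TSS ratio was 2.69, 2.59 and 2.86 with triptolide and 2.82, 3.30 and 3.18 with DRB, so the groups overlapped (exact permutation p = 0.2). In the unbound fraction it was 13.8, 12.4 and 13.3 with triptolide and 16.3, 16.9 and 20.8 with DRB, 1.37-fold and without overlap. With background taken at least 5000 bp from peaks, the DRB mean at TSSs was 1.54 times the triptolide mean.

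**Figure D1:**
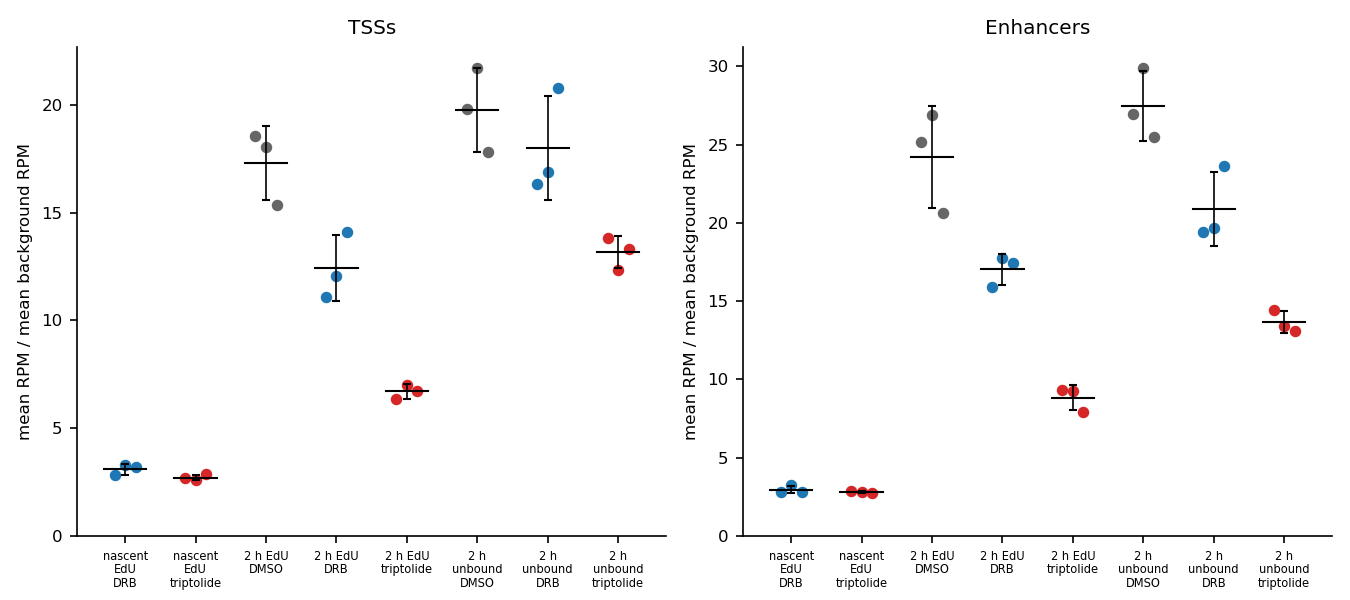
Mean RPM of TSS windows (left) and enhancer windows (right) over mean background RPM, by drug, in nascent EdU, 2 h EdU and 2 h unbound libraries, with each point 1 library and a bar at the group mean with its SD. At 2 h the triptolide libraries (6.36 to 7.02) lie below every DRB library (11.1 to 14.1) for the TSS to background ratio.

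The 2 drugs also differed in the shape of the signal around promoters. Signal was compared 1 to 3 kb downstream and upstream of 2190 isolated coding promoters with an S5P peak. With DRB the downstream side exceeded the upstream side by a ratio of 1.39, 1.40 and 1.45. The triptolide libraries gave 1.17, 1.19 and 1.20, and the DMSO libraries 1.24, 1.16 and 1.17. Triptolide thus lay within the DMSO range, and all 3 DRB libraries lay above it (exact permutation p = 0.1 for triptolide against DRB). The same asymmetry was present in nascent chromatin, where DRB gave 1.26, 1.30 and 1.26 and triptolide 1.10, 1.09 and 1.11. In the unbound fraction the drugs lay closer together, at 1.44, 1.42 and 1.46 with DRB and 1.39, 1.31 and 1.41 with triptolide, against 1.15 ± 0.0550 (SD, n = 3) with DMSO.

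At the start sites of these promoters the signal was 11.9, 13.2 and 12.6 times background with triptolide, 24.1, 25.5 and 30.4 times with DRB and 42.4, 39.9 and 34.0 times with DMSO. One kilobase downstream, triptolide gave 7.42, 8.20 and 7.70 and DRB 10.9, 12.2 and 13.5, while the DMSO libraries gave 14.2, 13.8 and 11.4. DRB and DMSO libraries therefore overlapped 1 kb downstream, whereas they did not overlap at the start site. Nor did they overlap 1 kb upstream, where DRB gave 7.06, 8.00 and 8.38 and DMSO 10.6, 11.2 and 9.15. Triptolide gave 5.60, 6.06 and 5.45 there. At 2 kb upstream the means were 4.18 with DRB and 5.07 with DMSO, and at 2 kb downstream 5.81 and 5.96. Relative to background, DRB was thus below DMSO on the upstream side and close to it on the downstream side. At 5 kb downstream the order of the drugs turned: triptolide gave 4.57, 5.04 and 4.42 and DRB 3.89, 4.25 and 4.24. Around enhancers the drugs differed at the centre and at 1 kb on both sides (exact permutation p = 0.1 at each). At 5 kb their exact permutation p was 0.9 on one side and 1 on the other, with means of 3.78 and 3.77 for triptolide and 3.73 and 3.79 for DRB. These distances were picked after the data were seen.

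**Figure D2:**
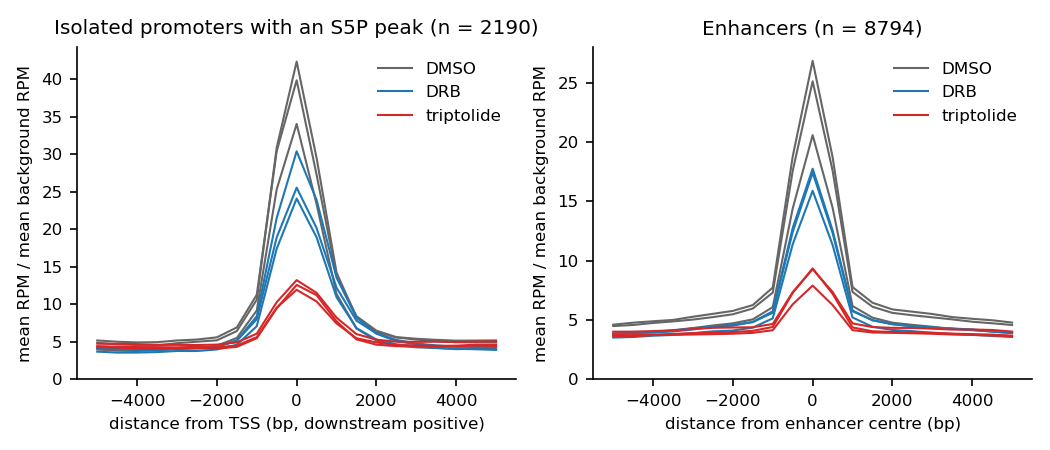
Mean signal over background against distance from the start site of isolated S5P promoters and from enhancer centres, with lines for the libraries of the 2 h EdU groups. DRB is higher than triptolide at the start site (24.1 to 30.4 against 11.9 to 13.2) and its downstream flank is the higher one.

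Single TSSs were tested with limma over 29798 of 31995 TSSs. A feature was called when its Benjamini-Hochberg adjusted p was under 0.05. With triptolide 4425 TSSs were lower than with DRB (14.8% of those tested) and 361 were higher (1.21%). The median difference, triptolide minus DRB on the log2(RPM + 1) scale, was -0.23, and the median standard error was 0.33. Below, falls, rises, losses and gains are those of triptolide relative to DRB, not to DMSO. This scale understates changes of low windows. Centring each library on its median TSS moved the median by 0.22 to -0.01 and gave 1932 lower and 667 higher TSSs, and scaling on background windows gave 7114 lower and 546 higher. Leaving out 1 library at a time gave 176 to 231 higher TSSs for each of the 6, and leaving out the third DRB library gave 2529 lower ones. Of the 71 called genes named below, 50 were called in every alternative. The calls of Cdx2, Col4a1, Col4a2, Dcst1, Eef2, Foxf1, Gins4, Gsc, Mcm6, Mdm2, Olfr1513, Olfr221, Olfr90, Pax9, Sox2, Taf7, Tbx3, Trim10, Utf1, Zfp42 and Zfp90 were lost in at least 1.

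The lower TSSs were strong promoters. Their median signal was 7.16 RPM with DRB, 8.99 RPM with DMSO and 2.62 RPM with triptolide. An S5P peak lay within 1000 bp of 2283 of the 4425 (51.6%), against 5893 of all 29798 tested (19.8%). Peaks called in nascent chromatin lay at 87.5% of the lower TSSs and at 38.8% of all tested. All tested TSSs include many without a peak, which have little signal to lose. Among TSSs with a nascent peak, 2119 of 4962 with S5P were lower (42.7%) and 1752 of 6595 without (26.6%). The higher TSSs were weak ones, with a median of 2.19 RPM with triptolide, 0.416 with DRB and 0.509 with DMSO. An S5P peak lay at 3 of these 361 (0.831%), and 213 (59.0%) had no peak in any list, against 37.6% of all tested. The calls rest on the same libraries that set these levels, so the levels are a description.

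The gap between the drugs was wider at promoters with S5P. Over these promoters the mean was 2.88, 3.0 and 3.02 RPM with triptolide and 5.74, 5.75 and 6.56 RPM with DRB, a 2.03-fold difference. Over TSSs without an S5P peak it was 1.50-fold, from 1.30 to 1.96 RPM. The contrast was also read within each library, as the mean of S5P TSSs divided by that of other TSSs with a peak. That ratio was 1.29, 1.27 and 1.27 with triptolide, 1.64, 1.61 and 1.60 with DRB and 1.65, 1.59 and 1.62 with DMSO. DRB lay within the DMSO range and triptolide below both (exact permutation p = 0.1 for triptolide against DRB). In nascent chromatin the means were 1.24 with triptolide and 1.45 with DRB (exact permutation p = 0.1). This measure was chosen after the data were seen.

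The time at which a TSS first carried a peak in the untreated time series also went with the difference. TSSs with a peak already in nascent chromatin had means of 3.09 RPM with triptolide and 5.74 RPM with DRB, a 1.86-fold difference, and 3871 of 11557 (33.5%) were lower. The fold was 1.58 where a peak first appeared at 30 min, 1.44 at 1 h and 1.38 at 2 h. Where a peak appeared only at steady state it was 1.03 and the libraries overlapped. There, 18 of 1424 TSSs were lower and 28 were higher. At TSSs without a peak in any list the order turned, with 0.322 RPM with triptolide, 0.264 with DRB and 0.239 with DMSO. Such TSSs are low and each rests on few reads per library.

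**Figure D3:**
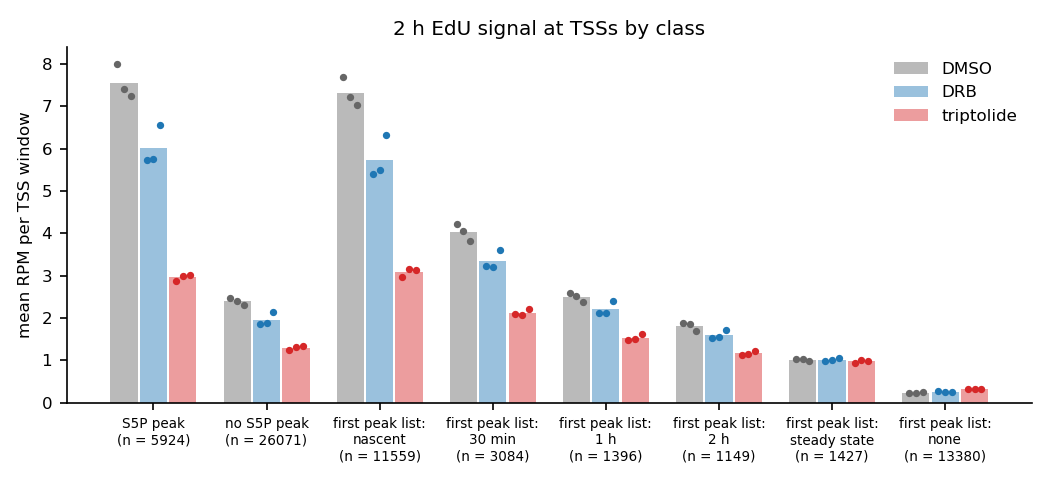
Mean RPM per TSS window in the 2 h EdU libraries by class of TSS and drug, with bars for the group mean and points for libraries. The DRB libraries exceed the triptolide libraries most at S5P TSSs (5.74 to 6.56 against 2.88 to 3.02 RPM).

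Triptolide signal was spread around peaks. Windows that held a steady-state peak took 36.9%, 38.2% and 36.2% of the signal with triptolide, 45.9%, 47.6% and 48.7% with DRB and 54.2%, 55.1% and 49.9% with DMSO. Windows up to 10 kb from a peak took 46.3%, 47.1% and 46.4% with triptolide, against 33.7%, 33.0% and 32.1% with DRB. Beyond 10 kb the shares were 16.8%, 14.7% and 17.4% with triptolide and 20.5%, 19.4% and 19.2% with DRB. None of these 3 pairs of groups overlapped (exact permutation p = 0.1 each).

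Per window, the mean within 1 kb of a peak was 0.667, 0.704 and 0.675 RPM with triptolide and 0.462, 0.463 and 0.450 RPM with DRB. The triptolide to DRB ratio was 1.49 there, 1.55 over 1 to 2 kb, 1.45 over 2 to 5 kb, 1.22 over 5 to 10 kb, 0.868 over 10 to 50 kb and 0.722 beyond 50 kb. In EdU chromatin at 2 h the flank next to peaks was higher and the far genome lower with triptolide than with DRB. The DMSO share beyond 10 kb, 16.3%, 16.1% and 19.3%, overlapped that of triptolide. In the unbound fraction the mean within 1 kb was 0.519 RPM with triptolide and 0.427 RPM with DRB, but beyond 50 kb it was 0.111 and 0.117 RPM (exact permutation p = 0.5). The unbound share beyond 10 kb was 17.4% with triptolide and 17.2% with DRB (exact permutation p = 0.9). In nascent chromatin the means within 1 kb were 0.655 RPM with triptolide and 0.552 RPM with DRB. Beyond 50 kb the nascent means were 0.205 and 0.258 RPM (exact permutation p = 0.1). The nascent share beyond 10 kb was 28.0% with triptolide and 33.2% with DRB (exact permutation p = 0.1). Relative to DRB, the higher flank and the lower far genome with triptolide were thus already present in nascent chromatin. The nascent DMSO libraries gave 0.624, 0.609 and 0.598 RPM within 1 kb, with every triptolide library above and every DRB library below. Beyond 50 kb they gave 0.160, 0.171 and 0.170 RPM, below every library of both drugs. At 2 h the DMSO libraries gave 0.107, 0.109 and 0.134 RPM beyond 50 kb. They overlapped triptolide (0.107, 0.0865 and 0.119) and lay below DRB (0.150, 0.140 and 0.142). TSSs without a peak of their own were counted by distance, beside 1.21% higher and 14.8% lower of all tested TSSs. Of these, 49 of 1171 tested (4.18%) were higher with triptolide at 1 to 2 kb from a steady-state peak, with means of 0.727 RPM against 0.478 RPM with DRB. At 2 to 5 kb, 81 of 2295 (3.53%) were higher. Beyond 50 kb 1 of 1300 was higher (0.0769%) and 3 were lower (0.231%), and the mean was 0.0752 RPM with triptolide and 0.106 RPM with DRB. The distance classes were chosen after the data were seen.

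**Figure D4:**
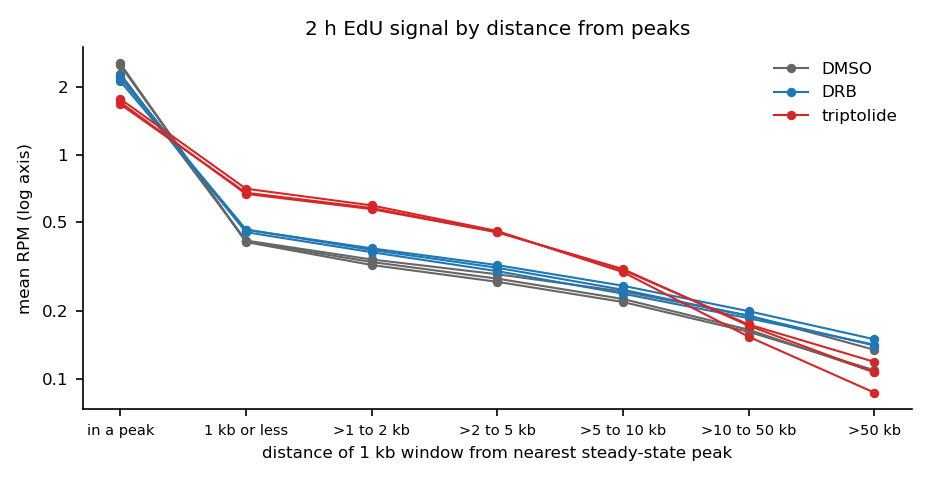
Mean RPM per window by distance from the nearest steady-state peak, on a log axis, with points and lines for each 2 h EdU library. Within 1 kb of a peak triptolide (0.667 to 0.704 RPM) is above DRB (0.450 to 0.463 RPM), and beyond 50 kb it is below.

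Enhancers, the distal elements of the deposited enhancer table, were lower at 2275 of 8774 tested (25.9%) and higher at 130 (1.48%), with a median log2 difference of -0.48. Means were 2.12 RPM with triptolide, 3.72 RPM with DRB and 4.68 RPM with DMSO. Enhancers with an S5P peak differed 1.76-fold and those without 1.75-fold. Lower enhancers had a median of 2.05 RPM with triptolide and 5.73 RPM with DRB, and higher ones 2.42 and 0.64 RPM. With centred libraries 754 were lower and 193 higher. Leaving out the second DRB library gave 1439 lower enhancers, leaving out the second triptolide library 1489 and leaving out the third triptolide library 1182. Higher enhancers numbered 67 to 93 when any 1 of the 6 libraries was left out.

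The enhancer window with the largest loss, chr10:40258001-40259000, also held the start of Rnu3a, a U3 small nucleolar RNA gene described below. The next was chr11:79752001-79753000, 26305 bp from Mir365-2. It had 1.73, 1.24 and 0.532 RPM with triptolide and 10.1, 7.09 and 10.2 RPM with DRB, a log2 difference of -2.24 ± 0.34 (SE, limma, adjusted p = 4.82e-07). The third, chr1:10031501-10032500 near Cops5, fell by 2.15 on the log2 scale. The enhancer with the largest gain, chr6:148951501-148952500 near Sinhcaf, had 4.03, 3.73 and 6.65 RPM with triptolide and 1.31, 0.746 and 0 RPM with DRB. The DMSO libraries had 0.306, 0.719 and 0.553 RPM there, so triptolide lay above both other groups. Windows near Mta3 and Kat2b were higher with triptolide than with DRB by 1.73 and 1.61 on the log2 scale. The DMSO means there were 1.07 and 1.59 RPM. In both windows every DMSO library lay below the triptolide libraries and above the DRB libraries.

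Distal peaks are steady-state peaks away from TSSs and enhancers. Of 136881 tested, 4985 were lower (3.64%) and 1666 were higher (1.22%), with a median log2 difference of -0.18. This split depended on the scaling: with centred libraries 1350 were lower and 3611 higher, and with scaling on background windows 13985 were lower and 2601 higher. Leaving out any 1 of the 6 libraries left 1541 to 2790 lower and 517 to 928 higher. Distal peaks with S5P differed 1.46-fold in mean signal, and all distal peaks 1.23-fold, from 1.85 RPM with triptolide to 2.27 RPM with DRB.

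The distal peak with the largest loss lay 3715 bp from the histone gene H4c4, at chr13:23585001-23586000. It had 1.15, 1.24 and 1.33 RPM with triptolide, 6.99, 10.5 and 11.9 with DRB and 15.0, 12.6 and 13.8 with DMSO. A peak at chr4:149898001-149899000, 56318 bp from Spsb1, stood apart from DMSO with DRB instead. It had 4.81, 6.34 and 8.41 RPM with DRB, 1.15, 0 and 0.798 with triptolide and 0.92, 1.08 and 2.21 with DMSO. A peak at chr14:76244001-76245000 near Rps2-ps6 had 1.15, 2.17 and 1.06 RPM with triptolide and 8.30, 9.70 and 12.8 RPM with DRB. The largest gain was at chr10:4325501-4326500 near Akap12, where triptolide gave 6.62, 5.90 and 3.99 RPM, DRB 0.437, 0.373 and 0.58 RPM, and DMSO 0.92, 2.52 and 1.11 RPM. Peaks near Ntan1 (chr16:13816501-13817500) and Rbpms (chr8:33858501-33859500) were higher with triptolide than with DRB by 2.09 and 2.04 on the log2 scale. The Ntan1 peak had 3.17, 6.52 and 5.32 RPM with triptolide, 0.437, 0.373 and 0.29 with DRB and 5.5, 3.6 and 3.6 with DMSO. Triptolide and DMSO overlapped there, and DRB lay below both.

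Promoters are shown for the 2 lower and the 2 higher genes with the largest changes among those with a RefSeq promoter entry. Rnu3b4, Rnu1a1 and Rnu3a changed more than H4c9 and are not shown. Each is 250 bases before to 50 after the start, read 5′ to 3′ on the gene's strand, from RefSeq on GRCm38.p6. Capitals mark matches to 4 motifs, each searched on both strands, so that the reverse complement can appear. The TATA box was searched as TATAAA. The letters of the GC box were GGGCGG. The CCAAT box was searched by those letters. The core of ETS factor sites was searched as GGAAGT. H4c4 (chr13:23581318-23581617, + strand) and H4c9 (chr13:22041313-22041612, - strand) encode histone H4 and were lower with triptolide. Dnmt3aos (chr12:3862195-3862494, - strand), a transcript antisense to Dnmt3a, and Fblim1 (chr4:141606003-141606302, - strand), which encodes a filamin-binding adaptor, were higher.
H4c4: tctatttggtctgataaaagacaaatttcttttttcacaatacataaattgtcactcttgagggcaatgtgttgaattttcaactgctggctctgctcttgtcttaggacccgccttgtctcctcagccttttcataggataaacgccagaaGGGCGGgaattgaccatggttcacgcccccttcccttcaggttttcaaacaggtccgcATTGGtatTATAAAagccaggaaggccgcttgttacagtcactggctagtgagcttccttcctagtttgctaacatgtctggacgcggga
H4c9: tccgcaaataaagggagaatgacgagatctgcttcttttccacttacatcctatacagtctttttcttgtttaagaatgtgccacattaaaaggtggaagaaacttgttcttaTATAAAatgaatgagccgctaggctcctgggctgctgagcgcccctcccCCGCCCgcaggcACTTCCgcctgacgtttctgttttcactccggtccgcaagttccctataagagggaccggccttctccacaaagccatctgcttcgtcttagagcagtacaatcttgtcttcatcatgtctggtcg
Dnmt3aos: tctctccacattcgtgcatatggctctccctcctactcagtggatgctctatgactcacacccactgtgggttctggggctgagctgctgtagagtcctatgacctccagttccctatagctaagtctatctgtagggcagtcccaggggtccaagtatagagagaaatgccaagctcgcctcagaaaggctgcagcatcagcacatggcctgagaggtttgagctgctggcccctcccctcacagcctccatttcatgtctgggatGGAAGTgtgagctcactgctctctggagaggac
Fblim1: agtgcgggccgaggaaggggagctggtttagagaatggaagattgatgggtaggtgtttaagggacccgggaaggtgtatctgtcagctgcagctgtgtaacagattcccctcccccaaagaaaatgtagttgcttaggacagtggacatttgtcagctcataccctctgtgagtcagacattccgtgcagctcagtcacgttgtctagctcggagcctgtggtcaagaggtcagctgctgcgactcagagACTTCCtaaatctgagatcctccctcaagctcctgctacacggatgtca

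Both histone promoters held TATAAA and a GC box, and the promoters of Dnmt3aos and Fblim1 held neither. The TATAAA lies close to the start in H4c4 and far upstream of it in H4c9. The GC content was 45.7% in H4c4, 48.3% in H4c9, 54.7% in Dnmt3aos and 52.3% in Fblim1. Median GC content ran the other way, at 62% over the lower and 53.7% over the higher genes. The histone promoters shown are thus not typical of the lower genes. Over the 14750 tested genes with a promoter entry, 12.7% held TATAAA, 49.6% GGGCGG, 38.6% CCAAT and 25.5% GGAAGT, and the median was 15 CG dinucleotides. Of the 3029 lower genes, 5.61% held TATAAA, 72.7% the GC box, 51.1% CCAAT and 31.3% GGAAGT, with a median of 23 CG dinucleotides (quartiles 17 and 30). The 113 higher genes had a GC box in 11.5%, CCAAT in 38.1%, TATAAA in 7.97% and a median of 4 CG dinucleotides. Open promoters in general are rich in CG: 5818 genes that were not called but had over 2 RPM with DRB held the GC box in 66.3% and CCAAT in 34.7%, with a median of 20. These 5818 held TATAAA in 7.03% and GGAAGT in 25.5%. A GC box itself contains CG. These shares are descriptions without a test, and a match is not evidence of a bound factor.

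Replication-dependent histone genes supply histones in S phase and are transcribed in clusters. Of 58 tested, 47 were lower with triptolide and none was higher, against 17.1% lower and 0.932% higher of 22958 named genes. Their median log2 difference was -1.73, against -0.30 for all named genes. With centred libraries 44 of the 58 were lower, against 1737 of the 22958. Median signal was 1.55 RPM with triptolide, 9.76 RPM with DRB and 10.6 RPM with DMSO. H4c4, at chr13:23581001-23582000, had 0.864, 0.621 and 1.33 RPM with triptolide, 14.0, 16.1 and 20.3 with DRB and 11.9, 13.7 and 15.2 with DMSO. The triptolide libraries lay far below the other groups, which overlapped each other (triptolide minus DRB, log2 difference -3.20 ± 0.32 SE, limma, adjusted p = 1.57e-14). H2bc18 had 2.88, 3.10 and 2.13 RPM with triptolide and 22.7, 26.1 and 20.0 with DRB, a fall of 2.69 on the log2 scale. H4c9, H4c18, H2bc7 and H2ac7 fell by 2.74, 2.57, 2.66 and 2.54. H2bc7 and H2ac7 are neighbours whose windows share reads, and near-identical copies make the naming of single histone genes uncertain.

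Small nuclear and nucleolar RNA genes encode the RNAs of splicing and of ribosomal RNA processing. With triptolide 17 of 25 were lower (68.0%, against 17.1% of all named genes, median -1.22). With centred libraries 14 were lower, against 1737 of the 22958 named genes. Median signal was 1.06 RPM with triptolide, 6.23 RPM with DRB and 7.85 RPM with DMSO. Rnu3b4, another U3 gene, had 0.288, 0.931 and 1.59 RPM with triptolide and 12.2, 20.1 and 15.9 RPM with DRB (log2 difference -3.17 ± 0.32 SE). Rnu1a1, a U1 gene, had 0.576, 1.55 and 0.532 RPM against 13.1, 14.2 and 11.9 RPM (-2.94). Rnu3a at chr10:40258001-40259000 had 1.44, 1.86 and 1.59 RPM with triptolide, 13.1, 22.4 and 17.7 with DRB and 40.5, 37.0 and 43.1 with DMSO. All 3 groups were separate, and DRB was itself below DMSO (log2 difference -1.17, limma, adjusted p = 0.026). Rnu3b1 fell by 2.52. These genes too exist in several like copies.

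Ribosomal protein genes were lower at 58 of 79 (73.4%, median -1.15), against 17.1% of all named genes. With centred libraries 36 were lower, against 1737 of the 22958 named genes. Their median signal was 2.11 RPM with triptolide, 5.61 with DRB and 5.20 with DMSO. Rps3, of the small subunit, had 1.44, 0.931 and 1.06 RPM with triptolide, 6.99, 7.09 and 10.4 with DRB and 4.29, 5.04 and 4.98 with DMSO, and another annotated gene lies within reach of its window. Its log2 difference was -2.08 ± 0.34 (SE, limma, adjusted p = 1.45e-06). Rpl10 had no reads in any triptolide library, and 3.06, 2.99 and 2.90 RPM with DRB. Rplp2 and Rpl35 fell by 1.84 and 1.71. Mitochondrial ribosomal protein genes were lower at 22 of 68 (32.4%, median -0.65) and at 10 with centred libraries, among them Mrpl12 (-1.65), Mrps27 (-1.47) and Mrpl41 (-1.45). An S5P peak lay at 42 of these 68, and 38.7% of all tested TSSs with such a peak were lower. Of the housekeeping list 10 of 22 were lower (45.5%, against 17.1% of all named genes), and 6 were with centred libraries. Ywhab, a 14-3-3 protein gene, fell by 1.84 and Ncl, which encodes nucleolin, by 1.50. Gapdh had 4.32, 6.21 and 4.25 RPM with triptolide and 5.24, 10.1 and 9.86 with DRB, which overlapped (log2 difference -0.63, limma, adjusted p = 0.147).

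The transcription factor p53 activates genes of cell cycle arrest and cell death. Of 24 p53 targets, 15 were lower with triptolide than with DRB (62.5%, median -0.97), against 17.1% of all named genes. With centred libraries 8 were lower, against 1737 of the 22958 named genes. Median signal was 3.18 RPM with triptolide, 8.52 RPM with DRB and 6.01 RPM with DMSO. Btg2, an antiproliferative p53 target that also responds to serum, had 3.46, 2.79 and 1.86 RPM with triptolide, 18.4, 10.8 and 13.6 with DRB and 4.90, 5.39 and 3.87 with DMSO. DRB lay above both other groups, with log2 differences of -2.04 ± 0.32 (SE, limma, adjusted p = 9.37e-07) for triptolide minus DRB and 1.40 for DRB minus DMSO (limma, adjusted p = 0.01). The comparisons with DMSO share libraries with that between the drugs. Mdm2, Cdkn1a, Gtse1 and Aen did not pass for DRB minus DMSO (0.78, 0.93, 0.38 and -0.41, limma, adjusted p = 0.269, 0.144, 0.678 and 0.638). Mdm2, the p53 ubiquitin ligase, fell by 1.19, Aen by 1.59 and Gtse1 by 1.57. Cdkn1a, the p21 gene, had 6.62, 3.41 and 4.25 RPM with triptolide and 6.99, 7.84 and 7.83 with DRB (log2 difference -0.61, limma, adjusted p = 0.208).

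Immediate early genes are induced within minutes of a stimulus and are known for paused polymerase. Of 23, 11 were lower (47.8%, median -0.81), against 17.1% of all named genes. With centred libraries 5 were lower, against 1737 of the 22958 named genes. Junb, an AP-1 subunit, had 2.88, 5.59 and 5.32 RPM with triptolide, 14.9, 13.8 and 13.6 with DRB and 3.98, 5.75 and 3.60 with DMSO. Triptolide and DMSO overlapped, and DRB was above both (triptolide minus DRB -1.47 ± 0.31 SE, limma, adjusted p = 0.000253). Ccn2, a serum response gene, fell by 1.55. Fos, Jun and Myc had log2 differences of -0.77, -0.75 and -0.53 that did not pass (limma, adjusted p = 0.106, 0.0783 and 0.183). Myc had 10.7, 10.2 and 13.3 RPM with triptolide and 17.9, 15.7 and 16.8 with DRB, so the libraries did not overlap although the test was not passed. Such separation was seen at 33.0% of all tested TSSs.

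Heat shock genes, also known for paused polymerase, were lower at 13 of 22 (59.1%, median -1.05), against 17.1% of all named genes. With centred libraries 10 were lower, against 1737 of the 22958 named genes. Hspa8, the constitutive HSC70 chaperone gene, had 7.20, 5.28 and 9.04 RPM with triptolide, 30.1, 29.5 and 25.8 with DRB and 23.3, 24.1 and 24.9 with DMSO. Each triptolide library was below both other groups, and DRB did not pass against DMSO (log2 0.23, limma, adjusted p = 0.821). Triptolide minus DRB passed (log2 difference -1.87 ± 0.27 SE, limma, adjusted p = 5.31e-08). Hspa5, the chaperone of the endoplasmic reticulum, and Dnajb1, an HSP40 cochaperone, fell by 1.66 and 1.53. DNA replication fork genes include those of the MCM and GINS helicase subunits. They were lower at 19 of 32 (59.4%, against 17.1% of all named genes, median -0.92) and at 8 with centred libraries. Rpa2, of the single-strand binding complex, fell by 1.73, Rfc3, of the clamp loader, by 1.52, Gins2 by 1.47, Gins4 by 0.98 and Mcm6 by 0.90.

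The targets of the drugs and their partners were examined next. Of 30 genes of polymerase II elongation control, 15 were lower with triptolide (against 17.1% of all named genes, median -0.83), and 7 were with centred libraries. Hexim1, which holds P-TEFb inactive together with 7SK RNA, had 1.73, 1.86 and 3.46 RPM with triptolide, 10.5, 10.8 and 6.67 with DRB and 13.2, 15.8 and 16.3 with DMSO (log2 difference -1.63 ± 0.31 SE for the drugs). Nelfe, of the pausing factor NELF, fell by 1.43, Ccnk, the cyclin of CDK12, by 1.49 and Supt5, a subunit of DSIF, by 1.23. Cdk9 itself had 1.73, 2.17 and 2.39 RPM with triptolide and 4.81, 3.36 and 3.77 with DRB, without overlap, but did not pass (-0.68, limma, adjusted p = 0.165). Its window has several genes nearby.

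Of 28 TFIIH and initiation factor genes, 10 were lower (35.7%, against 17.1% of all named genes, median -0.67). With centred libraries 2 of the 28 were lower, against 1737 of the 22958 named genes. An S5P peak lay at 16 of the 28, and 38.7% of all tested TSSs with such a peak were lower. The share of the list is not read as different from that of S5P promoters. Gtf2a1, of TFIIA, fell by 1.27, Med26, of Mediator, by 1.25 and Taf7, of TFIID, by 1.14. Polr2a, which encodes the largest subunit of polymerase II, had 2.02, 3.41 and 2.13 RPM with triptolide and 9.18, 6.72 and 6.96 with DRB (log2 difference -1.30 ± 0.32 SE, limma, adjusted p = 0.00172). Ercc3, which encodes the XPB target of triptolide, had 1.73, 1.55 and 2.39 RPM with triptolide and 3.06, 1.49 and 3.19 with DRB. These overlapped (-0.28, limma, adjusted p = 0.683). Cdk7, the TFIIH kinase, had -0.55 (limma, adjusted p = 0.25).

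Genes of stem cell identity were described by the pluripotency list. Of 34 pluripotency genes, 7 were lower (20.6%, against 17.1% of all named genes, median -0.35 against -0.30), with 3 lower and 1 higher in centred libraries. Their median signal was 3.92 RPM with triptolide, 4.96 with DRB and 6.22 with DMSO. An S5P peak lay at 23 of the 34, and 38.7% of all tested TSSs with such a peak were lower. Pou5f1, the gene of OCT4, had 1.73, 5.90 and 3.99 RPM with triptolide and 5.68, 3.73 and 4.06 with DRB, which overlapped (-0.26, limma, adjusted p = 0.669). Nanog had 6.34, 4.97 and 8.78 RPM against 9.61, 7.84 and 8.99 (-0.38, limma, adjusted p = 0.46). Sox2 had 5.47, 4.97 and 6.91 RPM against 12.2, 15.3 and 10.2 and did not overlap (-0.99 ± 0.30 SE, limma, adjusted p = 0.0139). Utf1, Trim28, Tbx3 and Zfp42 fell by 1.33, 1.22, 1.13 and 1.01, while Klf4 and Esrrb had -0.53 and 0.31 and did not pass.

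Polycomb-bound developmental regulators are kept silent but accessible in embryonic stem cells. They were lower at 8 of 56 (14.3%, against 17.1% of all named genes, median -0.49), and at 1 of 56 with centred libraries. An S5P peak lay at 41 of the 56, and 38.7% of all tested TSSs with such a peak were lower. Six2, Pax9 and Foxf1 fell by 1.29, 1.15 and 1.14. Zinc finger genes were lower at 87 of 288 (30.2%, median -0.64), 34 with centred libraries, with the largest falls at Zfp882, Zfp142 and Zfp90 (-1.76, -1.59 and -1.52). Markers of other cells form short lists, whose shares are not read as different from that of all named genes (17.1% lower). The lower ones were 2 of 13 (15.4%) for primitive endoderm, where Col4a1 and Col4a2 share 1 window, 1 of 7 (14.3%) for trophectoderm (Cdx2, -0.99), 2 of 12 (16.7%) for neural and germ layer genes (Nes, -1.29, and Gsc, -1.06), and none of 11 for fibroblasts or of 8 for the 2-cell-like state. Cdx2 had means of 3.9 RPM with triptolide, 8.5 with DRB and 4.5 with DMSO. Neither triptolide minus DMSO (-0.21) nor DRB minus DMSO (0.78) passed there (limma, adjusted p = 0.71 and 0.26). Dcn, a fibroblast matrix gene, and Gm8300 of the 2-cell-like list had -0.83 and -0.43 and did not pass (limma, adjusted p = 0.129 and 0.36). The trophectoderm and 2-cell-like medians, -0.16 and -0.04, turned to 0.06 and 0.18 with centred libraries, and the other lists but olfactory receptors kept a negative median. No gene of the marker, Polycomb or zinc finger lists was called higher, and with centred libraries 1 primitive endoderm marker was.

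Olfactory receptors are not expressed in stem cells. Their 941 tested promoters had a median difference of 0.00, with 3 higher (0.319%, against 0.932% of all named genes) and 1 lower. Centring the libraries gave a median of 0.22 with 11 higher and none lower, and scaling on background windows gave 6 higher and 22 lower. Olfr221 had 2.59, 2.17 and 2.93 RPM with triptolide and 0, 0.373 and 0.87 with DRB, a log2 difference of 1.37. Olfr1513 and Olfr90 rose by 1.34 and 1.11. These families hold many similar copies and the values are a handful of reads.

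**Figure D5:**
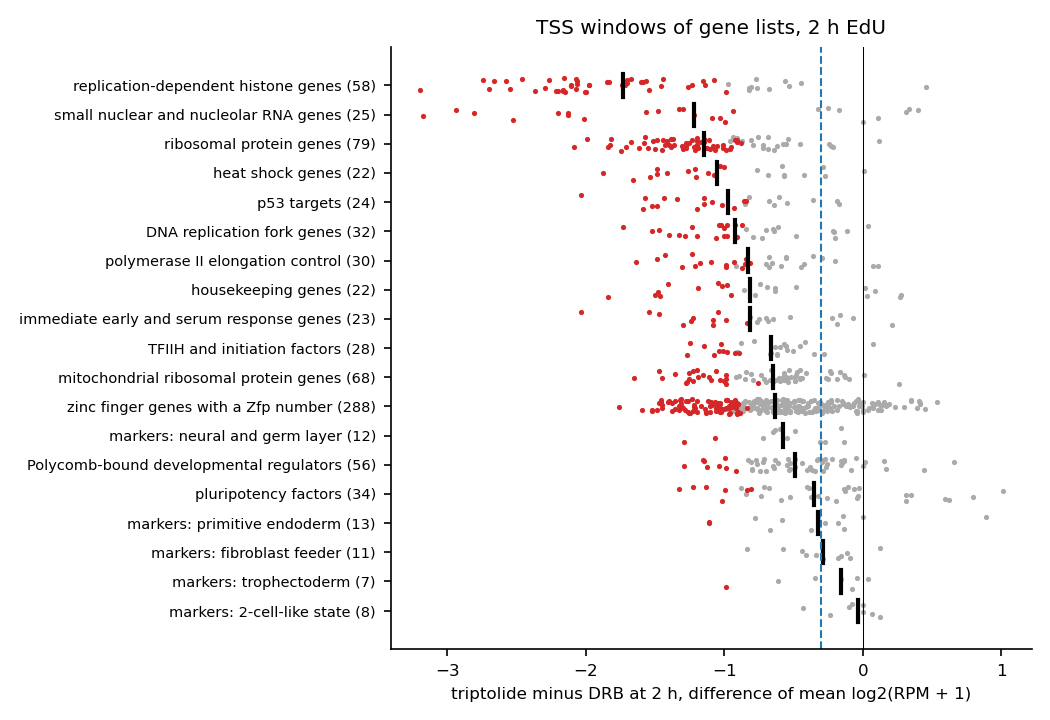
Log2 difference, triptolide minus DRB at 2 h in EdU chromatin, for the tested members of each gene list but olfactory receptors. Coloured points were called and grey ones were not, black bars mark list medians and the dashed line marks the median of all named genes (-0.30). Histone genes have the lowest median (-1.73).

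The genes with the largest gains belonged to no list. Dnmt3aos had 3.46, 5.59 and 3.99 RPM with triptolide, 0, 1.12 and 0 with DRB and 0.92, 1.08 and 2.21 with DMSO (log2 difference 2.04 ± 0.39 SE, limma, adjusted p = 5.88e-05). Fblim1 had 4.32, 5.90 and 5.58 RPM with triptolide, 0.874, 0.746 and 0.87 with DRB and 0, 0.36 and 0.277 with DMSO. In both, triptolide lay above every library of the other groups (Fblim1 1.77 ± 0.38 SE, limma, adjusted p = 0.000309). Cacng8, a calcium channel subunit gene, had 3.74, 8.07 and 8.51 RPM against 1.31, 1.49 and 2.32 with DRB (1.47). Nlrp12, H1f11-ps, Pp2d1, Klhl10, Trim10, Dcst1 and Shbg rose by 1.44 to 1.66 on the log2 scale. The DRB values of these genes rest on few reads each.

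Whether the drug difference changed with maturation was tested as 2 h minus nascent. In nascent chromatin 172 TSSs were lower with triptolide than with DRB (0.577%) and 26 were higher (0.0873%). The change from nascent to 2 h passed at 222 TSSs, of which 219 moved down (0.735%) and 3 up (0.0101%). At enhancers 175 moved down (1.99%) and 3 up (0.0342%). The count depended on single libraries: it was 75, 115, 132, 137 and 123 without the third or the second DRB or the first, the second or the third triptolide library of 2 h. It was 147 and 124 without the second or the third nascent triptolide library and 429 without the third nascent DRB library. It was 72 with centred libraries and 13 with limma-voom on recovered reads. Hspa8 was lower already in nascent chromatin, with a mean of 2.12 RPM with triptolide and 6.98 RPM with DRB (limma, adjusted p = 0.013). The histone genes had a median difference of -0.33 in nascent chromatin, against -0.09 for all named genes.

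In the unbound fraction at 2 h, 2456 TSSs were lower with triptolide than with DRB (8.24%) and 241 higher (0.809%). Of 58 histone genes 50 were lower there, against 2186 of 22958 named genes. Of enhancers 1896 were lower (21.6%) and 53 higher (0.604%). The difference in EdU chromatin exceeded that in the unbound fraction in a test of the difference itself at 203 TSSs downward (0.681%) and 3 upward. Keeping the EdU and unbound fraction of 1 number as a block left 39 such TSSs in both directions together, and centred libraries left 7. It was 3, 51 and 46 without the first, the second or the third unbound triptolide library, 9 and 10 without the first or the second unbound DRB library and 18 without the third EdU DRB library. At enhancers 3 passed downward (0.0342%) and none upward (0%), with 1135 at an unadjusted p under 0.05 in limma. Against DMSO at 2 h, triptolide lowered 8521 TSSs (28.6%) and raised 812 (2.73%), and DRB lowered 186 (0.624%) and raised 60 (0.201%). At enhancers triptolide lowered 4173 (47.6%) and raised 221 (2.52%), and DRB lowered 400 (4.56%) and raised 42 (0.479%). These comparisons share the DMSO libraries and, with the comparison between drugs, the triptolide or DRB libraries.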

How the data were processed

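Replicated chromatin of E14TG2a cells was measured by repli-ATAC-seq. Per the submitters' processing notes, reads were trimmed with Trim Galore 0.4.2 and aligned with Bowtie2 2.2.6.2 to mm10, and neither source names settings or a peak caller. Window tables were deposited as log2(RPM + 1), per the file headers, for windows of 1 kb at a step of 500 bp. They hold 5451088 windows, 22 chromosomes and 36 libraries. Other deposited files give positions of peaks, TSSs and enhancers, per the file headers, and carry no height. Spike-in values and the S5P time series were not used here.

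RPM was recovered by undoing the log2, and dividing by each library's smallest step gave whole reads within 0.1 read for 100% of values. Reads have no molecular identifiers. The window nearest each TSS, enhancer or distal peak centre was used, for features above 0 in at least 3 EdU libraries. TSSs were named from RefSeq GRCm38.p6. Background was 20000 windows drawn from 3992109 at least 1000 bp from any peak. Features were tested on log2(RPM + 1) with limma 3.58.1 (moderated, with trend) in R 4.3.3 over all 18 EdU libraries, with Benjamini-Hochberg adjustment over all features of a kind. Within-library ratios used an exact permutation test (scipy 1.17.1, Python 3.11.15). Scripts were tested on simulated data. Reads were drawn for 29798 TSSs, and 200 of those with at least 2 RPM were changed. The TSS test recovered 4% of the 2-fold and 44% of the 4-fold changes, with 2 false calls. Fewer TSSs changed there than were called in the data, so these shares need not hold for the data. A feature that did not pass may still differ between groups.

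Genes named are the 10 with the largest difference in each direction among those that passed, had at least 2 RPM in the higher group, did not overlap between groups and had a regular symbol, a fixed panel, and up to 3 of each list. Regions named are the 3 largest in each direction. The members and lists were chosen with earlier results of these data known. Alternatives were the scaling, the filter, the pseudocount, limma-voom on recovered reads, a replicate block and leaving out each library. Replicate numbers are not tied to cultures by the labels. A gene of the fixed panel is not reported here.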

Additional observations from a re-analysis of the deposited data

Results flagged for a closer look

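At 20 named genes and regions the triptolide minus DRB difference at 2 h departed from that in nascent EdU chromatin in a test of the difference itself (limma, adjusted p under 0.05). The differences of differences on the log2 scale were -2.53 at H4c4, -2.40 at H4c9, -2.48 at H4c18, -1.86 at H2bc18, -1.95 at H2bc7 and -2.45 at H2ac7 among histone genes. They were -2.92 at Rnu1a1, -2.60 at Rnu3a, -2.61 at Rnu3b1 and -2.73 at Rnu3b4 among small RNA genes. Hspa5 gave -2.31, Junb -2.16, Nelfe -1.76 and Utf1 -1.84. Enhancer windows nearest Rnu3a, Mir365-2 and Cops5 gave -2.60, -2.37 and -2.40, the first being the Rnu3a start itself. Distal peaks nearest Spsb1 and Rps2-ps6 gave -2.33 and -2.51, and the one nearest Ntan1 gave 2.55. Regions, and genes outside the fixed panel, were named for their difference at 2 h, so these values are not independent of that choice. Nascent signal was low at some of them. The Mir365-2 window had nascent means of 0.542 RPM with triptolide and 0.416 RPM with DRB, and the Rnu3a window 0.86 and 1.13 RPM. The log2(RPM + 1) scale understates differences of such windows.

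At 10 named genes the difference in EdU chromatin departed from that in the unbound fraction by the same kind of test. The values were -1.79 at H2ac7, -1.29 at H2bc18, -2.01 at H2bc7, -1.33 at H4c4 and -1.62 at H4c9. They were -1.20 at Gins2, -1.38 at Rfc3, -1.62 at Rpl10, -1.35 at Ywhab and -1.54 at Zfp882. These genes were named for their difference between the drugs in EdU chromatin, so the values are not independent of that choice. The fit behind them did not pair EdU and unbound libraries of 1 number.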

How the results depend on the processing

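The ratios to background and the downstream to upstream ratio kept their direction under every alternative. Leaving out 1 library gave a triptolide to DRB ratio of 0.512 to 0.579 at TSSs, 0.502 to 0.547 at enhancers and 0.834 to 0.852 for downstream to upstream. Counts of calls depended on the scale. With libraries centred on the median TSS there were 667 higher and 1932 lower TSSs, 754 lower enhancers, 3611 higher and 1350 lower distal peaks, 72 TSSs that changed from nascent to 2 h and 7 that differed from the unbound fraction. Scaling to background gave 546, 7114, 3446, 2601, 13985, 1081 and 113 in that order. A pseudocount of 0.25 gave 158 higher and 2569 lower TSSs, 38 higher and 689 lower enhancers, 181 higher and 468 lower distal peaks, 54 and 49. Limma-voom gave 570 higher TSSs, 9105 lower distal peaks, 13 and 553. A mean of at least 1 RPM gave 362 and 493, and a fit to the 6 libraries alone 3041 higher and 8818 lower distal peaks. Leaving out 1 library gave 176 to 231 higher and 2529 to 3591 lower TSSs, 67 to 93 higher and 1182 to 1901 lower enhancers, 517 to 928 higher and 1541 to 2790 lower distal peaks, 75 to 429 against nascent and 3 to 262 against unbound. The cause was not tested. Pou5f1, not called, ranged from -0.56 to 0.11 when 1 library was left out, and turned positive without the first triptolide library.

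Replicate numbers tied triptolide and DRB libraries weakly if at all: same-numbered ones correlated at 0.06, 0.03 and 0.02 in their deviations over 16836 TSSs. Their highest correlations with a library of another number were -0.0163, 0.0301 and -0.00426. With the replicate block there were 384 higher and 4601 lower TSSs, 134 and 2336 enhancers, and 1835 and 5432 distal peaks. EdU and unbound libraries of 1 number correlated at 0.04 to 0.12. Each such value was above the highest with another number, which ranged from -0.0322 to -0.00959. The 2 fractions of 1 number may therefore be paired, which the main fit ignored. The replicate block by sample, which kept them together, left 39 TSSs. Depth limits windows of few reads.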

Other observations

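The share of EdU signal on the X chromosome at 2 h was 2.11%, 1.91% and 2.01% with triptolide, 2.34%, 2.23% and 2.18% with DRB and 2.39%, 2.29% and 2.31% with DMSO. The triptolide and DRB libraries did not overlap (exact permutation p = 0.1, the smallest possible). In nascent EdU chromatin the mean share was 2.25% with triptolide and 2.45% with DRB (exact permutation p = 0.1), so the difference was already present there. In the unbound fraction at 2 h it was 2.13% and 2.14% (exact permutation p = 0.8).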
